A study of Mus musculus with 8 samples.

Results

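The genes described here are 10 genes of the liver X receptor (LXR) axis and of lipoprotein lipid transport: Nr1h2, Nr1h3, Abca1, Abcg1, Abcg4, Apoe, Pltp, Lcat, Lpl and Mylip. They were chosen by symbol, with earlier results of these data known. All 10 were found among the 24344 gene symbols of the table, each on 1 row. The RNA-seq libraries were made from homogenised occipital cortex, which contains the visual areas. The mice were of the strain C57BL/6J and 35 days old. Of 8 libraries in 2 groups, 4 were of mice without food for 48 h (fasted) and 4 of mice with free access to it (ad libitum, or fed). No genetic change or other agent is named in the labels for either group. The labels do not say whether each library came from a separate animal, so p-values measure the spread between these libraries, which may be technical.

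LXRs are nuclear receptors that bind DNA as partners of the retinoid X receptors (RXRs) and are activated by oxysterols, oxidised derivatives of cholesterol. Their known targets include the transporters Abca1 and Abcg1, which hand cholesterol and phospholipid to lipoprotein particles, and Apoe, Pltp, Lpl and Mylip. Because lipoproteins of the blood do not cross into the brain, glial cells there make their own particles around apolipoprotein E, and these particles carry cholesterol between brain cells. Lcat and Pltp remodel such particles outside the cell, and lipoprotein receptors at the cell surface take them up.

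The 250 bases before the RefSeq start sites were available for 7 of the 10 genes (RefSeq, GRCm38.p6), and for all but Abcg1, Abcg4 and Lpl. They were searched on both strands for the LXR element DR4, here AGGTCA repeated after a gap of 4 bases of any kind with at most 3 of its 12 fixed letters differing, for AGGTCA alone, the E-box CACGTG, the GC box GGGCGG and the TATA box TATAAA. The limit of 3 differing letters was set with the Abca1 sequence known. The promoters of Abca1, which rose in fasted cortex, and of Pltp and Lcat, which fell, are given 5′ to 3′ on the strand of the gene, with matches to DR4, E-box, GC box or TATA box in capitals.
Abca1 (chr4:53159896-53160145, minus strand): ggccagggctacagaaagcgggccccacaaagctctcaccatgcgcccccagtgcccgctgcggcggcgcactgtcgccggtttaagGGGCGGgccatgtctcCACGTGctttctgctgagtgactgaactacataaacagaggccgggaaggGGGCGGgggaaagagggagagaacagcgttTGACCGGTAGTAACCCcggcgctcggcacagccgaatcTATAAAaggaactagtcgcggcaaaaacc
Pltp (chr2:164857709-164857958, minus strand): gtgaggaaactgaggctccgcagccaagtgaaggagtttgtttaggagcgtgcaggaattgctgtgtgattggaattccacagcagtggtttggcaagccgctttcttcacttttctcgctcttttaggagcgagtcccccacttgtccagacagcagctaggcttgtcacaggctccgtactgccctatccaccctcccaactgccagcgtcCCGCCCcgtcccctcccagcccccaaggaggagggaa
Lcat (chr8:105943403-105943652, minus strand): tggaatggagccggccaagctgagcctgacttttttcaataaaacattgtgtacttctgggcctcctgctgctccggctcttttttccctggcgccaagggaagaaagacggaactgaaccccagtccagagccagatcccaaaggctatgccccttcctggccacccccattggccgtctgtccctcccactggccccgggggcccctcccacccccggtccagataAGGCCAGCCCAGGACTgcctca

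The Abca1 promoter held a DR4 match from -67 to -52 relative to the start site, which reads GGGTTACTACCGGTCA on the opposite strand and differs from the searched repeat at 3 letters. It also held 1 E-box at -147 to -142, 2 GC boxes and a TATA box at -29 to -24. The Lcat promoter held a DR4 match from -22 to -7, also with 3 letters differing, and the Pltp promoter held a GC box at -37 to -32 and no other match. Abca1 and Lcat were the only ones of the 7 genes with a DR4 match. Mylip held a GC box and a TATA box, Apoe held TATA box matches in one of its windows, and Nr1h2 and Nr1h3 held no match. Matches were common in general. Of 32851 promoters of the same length in the table, 18.5% held such a DR4 match, 6.02% the E-box, 32.7% the GC box and 12.4% the TATA box. AGGTCA alone was in none of the windows of the 7 genes, which says only that these letters are not there.

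Fasted cortex had higher levels of the cholesterol exporters Abca1 and Abcg1 and lower levels of the phospholipid transfer protein gene Pltp, the lipoprotein lipase gene Lpl and the cholesterol acyltransferase gene Lcat. Abca1 was 1.5-fold and Abcg1 1.29-fold the fed mean, while Pltp was at 0.534, Lpl at 0.591 and Lcat at 0.732 of it. Levels are in FPKM, which counts fragments relative to a transcript's length and to the fragments mapped. The test was limma on log2(FPKM + 1), with calls where the p adjusted by Benjamini-Hochberg over 12377 tested genes was under 0.05. Of the 10 genes 9 passed the filter of 1 FPKM in at least 4 libraries, and 2 of these rose, 3 fell and 4 were not called. Over all tested genes 9.56% rose and 16.3% fell, 25.8% in either direction. That share of rises moves with scaling: 1183 genes rose and 2015 fell as deposited, 1792 and 1909 with quantile scaling, and 2152 and 2166 with GC and length offsets. The same 5 genes were those whose groups did not overlap, against 27.6% of all tested genes. The median change of the 9 genes on the log2 scale was -0.08 and the median absolute change 0.33, against -0.02 and 0.12 over all tested genes. Because the genes were chosen with earlier results of these data known, these comparisons with all tested genes are a description only. Each of the 5 calls held in every one of 20 alternative settings, and none of the other 4 genes was called in any of them.

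**Figure D1:**
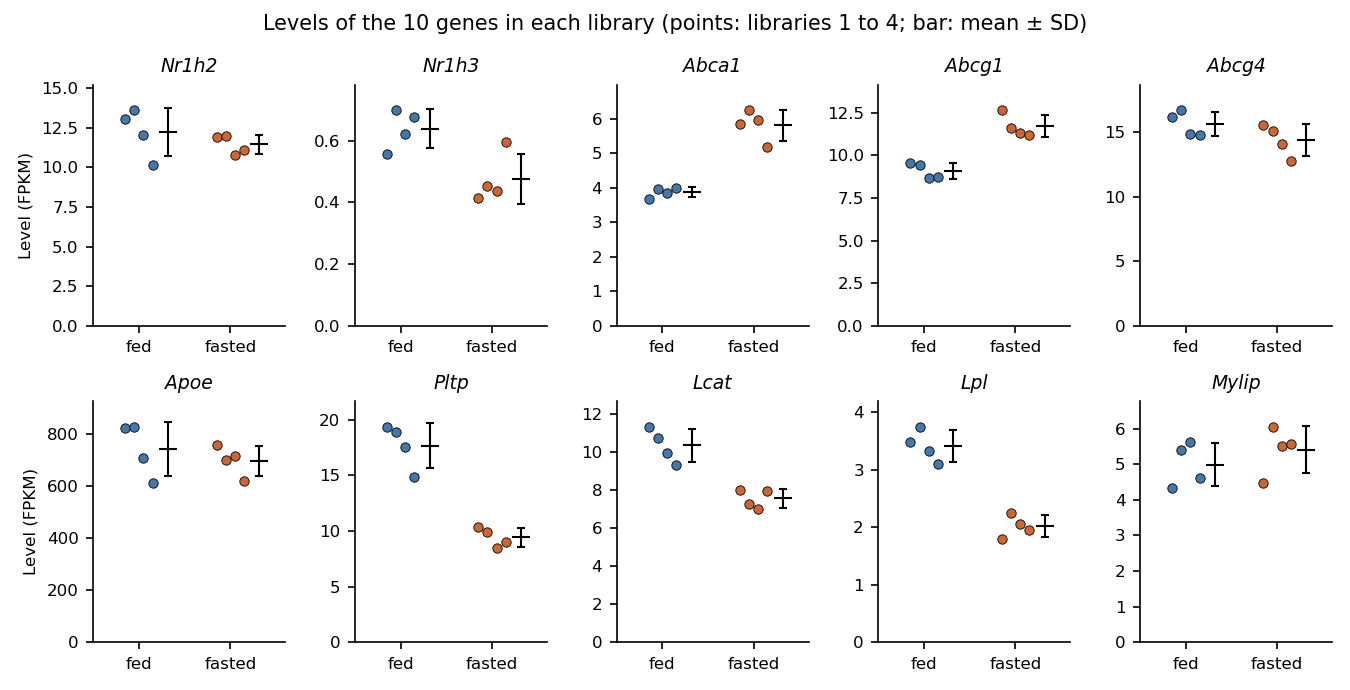
Level of each gene in FPKM (vertical axes, each starting at 0) in the 4 fed and 4 fasted libraries, with points for libraries 1 to 4 from left to right and bars for the mean ± SD. Fed and fasted points do not overlap for Abca1, Abcg1, Pltp, Lcat and Lpl, and overlap for the other 5 genes.

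Depth and scaling bear on these values. FPKM give no depth directly. An estimate from the smallest steps of FPKM in single-transcript genes, which depends on the range searched, came to 16900000 to 21300000 fragments per library. FPKM totals ran from 253470 in ad libitum replicate 4 to 360010 in ad libitum replicate 2, where the 10 most abundant genes took 24.1% of the total (3.98% at the lowest). Without ad libitum replicate 2 the log2 changes of the 5 called genes were -0.80 for Pltp, 0.49 for Abca1, 0.35 for Abcg1, -0.39 for Lcat and -0.51 for Lpl, all called.

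Of the receptors, Nr1h2 (LXR beta; GRCm38 chromosome 7, 44549616 to 44553951) was by far the more abundant. Its level was 13.1, 13.6, 12.04 and 10.2 FPKM in the fed libraries 1 to 4 and 11.9, 11.96, 10.8 and 11.1 in the fasted ones. The groups overlapped, and the lowest value was that of ad libitum replicate 4, the library with the lowest FPKM total. The log2 change was -0.08 with a 95% interval of -0.257 to 0.0954 (limma adjusted p = 0.49), so that a fall or rise within this interval was not resolved. Single libraries moved it: it was -0.16 on leaving out fed library 4 (adjusted p = 0.0684), -0.03 without fed library 2, and -0.05 without fed library 1 or fasted library 3. Nr1h3 (LXR alpha; chromosome 2, 91184061 to 91202834) was at 0.558, 0.698, 0.622 and 0.678 FPKM fed and at 0.414, 0.455, 0.438 and 0.596 fasted. Of the fasted libraries 3 lay under all fed ones, and replicate 4 overlapped with them. With all values under 1 FPKM, an estimated 14.5 to 25.8 fragments per library, Nr1h3 did not enter the test across genes. The means were 0.639 ± 0.063 and 0.475 ± 0.0819 (SD, n = 4 each), and the difference of -0.163 FPKM had p = 0.0571 in an exact two-sided permutation test, where the smallest possible p is 0.0286. Within the replicate numbers the fasted library was lower in 4 of 4 cases, which gives p = 0.125 by exact two-sided sign flips, the smallest p that 4 pairs allow; this test was added after the values were seen. With the filter lowered to 0.1 FPKM limma put the change at -0.15 on the log2 scale (adjusted p = 0.0942), and without any filter the adjusted p was 0.101. Per length, Nr1h2 was 19.3 ± 3.45 times Nr1h3 in fed and 24.6 ± 4.32 times in fasted libraries (SD, n = 4 each), with overlapping ranges of 15.01 to 23.5 and 18.7 to 28.9.

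The RXR partners and coregulators of LXR, a list of 15 genes with 14 tested, rose in 5 cases and fell in 0, with a median log2 change of 0.08. For this list and those below, the shares over all tested genes were 9.56% rises and 16.3% falls. With the replicate number as a block they were 14.3% and 22.1%. Counts by unadjusted p have no such share beside them. Rxra, an RXR partner gene, went from 3.93 ± 0.216 to 4.88 ± 0.533 FPKM (SD, n = 4 each), a log2 change of 0.25 with adjusted p = 0.0285 (limma). That call was lost on leaving out replicate 1 or 3 of the fed group or 1, 2 or 3 of the fasted group, with adjusted p from 0.0521 to 0.0774. The coactivator gene Ncoa1 rose by 0.22. Gps2, which encodes a subunit of corepressor complexes, rose by 0.22. Rxrb, named after its values were seen, was the more abundant RXR gene, at 15.4 ± 1.44 and 14.8 ± 1.4 FPKM (SD, n = 4 each), and was not called (limma adjusted p = 0.601). Rxrg, chosen likewise, was at 0.671 and 0.586 FPKM and was not tested. The list held 6 rises with the replicate number as a block and 3 to 5 when a library was left out, 3 of them without fed library 1 or 3 or fasted library 1, 2 or 3. No setting gave a fall, and by unadjusted limma p under 0.05 there were 6 rises and 0 falls.

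Among the exporters, Abca1 (chromosome 4, 53030787 to 53159895), which loads cholesterol and phospholipid onto lipid-poor apolipoprotein, was at 3.68, 3.95, 3.85 and 4.003 FPKM in the fed libraries and at 5.84, 6.24, 5.97 and 5.18 in the fasted ones. All fasted libraries lay above all fed ones, and the lowest fasted value was that of replicate 4. The mean went from 3.87 ± 0.144 to 5.81 ± 0.454 FPKM (SD, n = 4 each), a log2 change of 0.48 with SE 0.0632 and adjusted p = 0.000529 (limma). In order of change it ranked 165 of 12377 tested genes from the top.

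Abcg1 (chromosome 17, 31057675 to 31117988), which passes cholesterol to particles that already carry lipid, was at 9.56, 9.43, 8.68 and 8.72 FPKM fed and at 12.6, 11.6, 11.3 and 11.2 fasted. The groups did not overlap, and within each of the 4 replicate numbers the fasted library was higher, by 0.28 to 0.37 on the log2 scale. The log2 change was 0.33 with SE 0.0568 and adjusted p = 0.00205 (limma). Abcg4 (chromosome 9, 44273188 to 44288615), the close relative of Abcg1, was at 16.2, 16.7, 14.8 and 14.7 FPKM fed and 15.5, 15.1, 14.04 and 12.7 fasted. These groups overlapped, and the log2 change of -0.11, with a 95% interval of -0.264 to 0.0353, was not called (limma adjusted p = 0.24, and 0.0757 to 0.52 over the alternatives). Without fasted replicate 4 it was -0.06. The interval over all 8 libraries excludes a rise of the size seen in Abcg1. Within a library the ratio of Abcg4 to Abcg1, in which the scaling between libraries cancels, was 1.69 to 1.77 fed and 1.14 to 1.3 fasted. This ratio was not set in advance and is a description.

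Of the 18 other ABC lipid transporters 10 were tested, and 1 rose and 3 fell. Abca5 rose by 0.28 on the log2 scale. Abca7, a transporter of phospholipid also put on the list of LXR targets below, went from 2.16 ± 0.0659 to 1.51 ± 0.113 FPKM (SD, n = 4 each). Abcd2, which imports very long-chain fatty acids into peroxisomes, had a log2 change of -0.25. Its call (limma adjusted p = 0.025) ended with equal-sum scaling (adjusted p = 0.052) and on leaving out fed library 1 or 3 or fasted library 1, 2 or 3 (adjusted p from 0.0593 to 0.078). With the scaling alternatives 1 to 3 of the list rose and 2 to 3 fell, so that the list had no common direction.

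**Figure D2:**
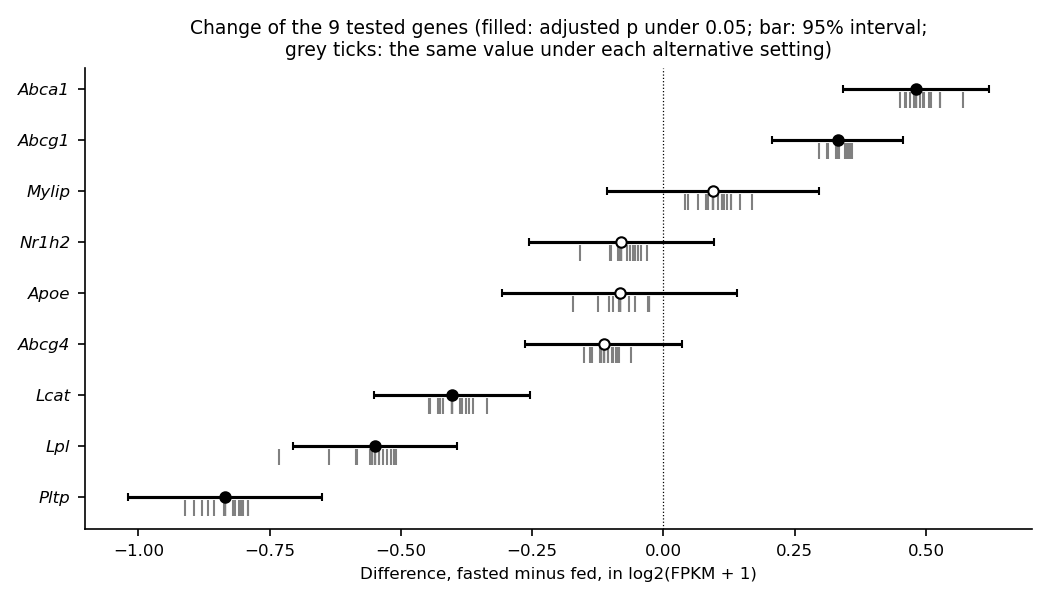
Difference between fasted and fed cortex in log2(FPKM + 1) for the 9 tested genes, with filled points for called genes, bars for the 95% interval and grey ticks for the value in each of 20 alternative settings. The ticks of Abca1 and Abcg1 all lie above 0 and those of Pltp, Lpl and Lcat all below it.

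Apoe (chromosome 7, 19696109 to 19699188), the main apolipoprotein of brain particles, was at 824, 827, 705 and 612 FPKM fed and at 757, 698, 713 and 619 fasted, above 99.9% of tested genes by its mean. The groups overlapped in full, since both the highest and the lowest value were fed libraries. The log2 change was -0.08 with a 95% interval of -0.308 to 0.141 (limma adjusted p = 0.582), and within the replicate numbers the fasted library was higher in 2 cases and lower in 2. On leaving out fed library 4 it was -0.17 (adjusted p = 0.119), and with fed library 1 or 2 or fasted library 4 left out it was -0.03. It was also -0.05 with median-ratio scaling and -0.03 with GC and length offsets. The genes beside Apoe in its cluster, named after their values were seen, were near or at 0: Apoc1 was at 0.375 and 0.250 FPKM on average, Apoc2 was listed at 0 in 6 of 8 libraries and Apoc4 in all.

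Of the 17 other apolipoproteins only 4 were tested, Apod, Clu, Apool and Apoo. Apod, a lipocalin that carries small lipids, went from 42.9 ± 4.55 to 59.7 ± 9.47 FPKM (SD, n = 4 each), a log2 change of 0.46 with adjusted p = 0.0104 (limma), although fasted replicate 4 at 48.2 lay under the highest fed library at 48.7. Apool, whose product belongs to a mitochondrial inner membrane complex, had a log2 change of -0.32. Clu, or apolipoprotein J, named after its values were seen, was at 320.1 ± 20.8 and 346 ± 20.5 FPKM (SD, n = 4 each; limma adjusted p = 0.257). It passed with each of the 4 scaling alternatives (adjusted p from 0.00217 to 0.036) and with the replicate block (0.0454).

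Pltp (chromosome 2, 164839518 to 164857711), whose product moves phospholipid between particles, was at 19.4, 18.9, 17.6 and 14.9 FPKM in the fed libraries and at 10.4, 9.88, 8.51 and 8.996 in the fasted ones. Each fasted library was below each fed one, with a wide gap between 10.4 and 14.9. The mean went from 17.7 ± 2.03 to 9.44 ± 0.845 FPKM (SD, n = 4 each), a log2 change of -0.84 with SE 0.085 and adjusted p = 0.00012 (limma). In order of change it ranked 15 of 12377 tested genes from the bottom. Over the alternatives the log2 change ran from -0.91 to -0.79 and the adjusted p from 2.74e-06 to 0.000913.

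The promoters printed above belong to genes called in opposite directions. The ratio of Abca1 to Pltp within a library, in which the scaling between libraries cancels, shows that these genes changed unequally and not the direction of either. It was 0.190, 0.209, 0.219 and 0.269 in the fed and 0.563, 0.632, 0.702 and 0.575 in the fasted libraries. The ratio of Abcg1 to Pltp went from 0.518 ± 0.0455 to 1.24 ± 0.0656 and that of Apoe to Pltp from 41.9 ± 1.52 to 74.1 ± 6.74 (SD, n = 4 each). These ratios were chosen after the values were seen and are a description.

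**Figure D3:**
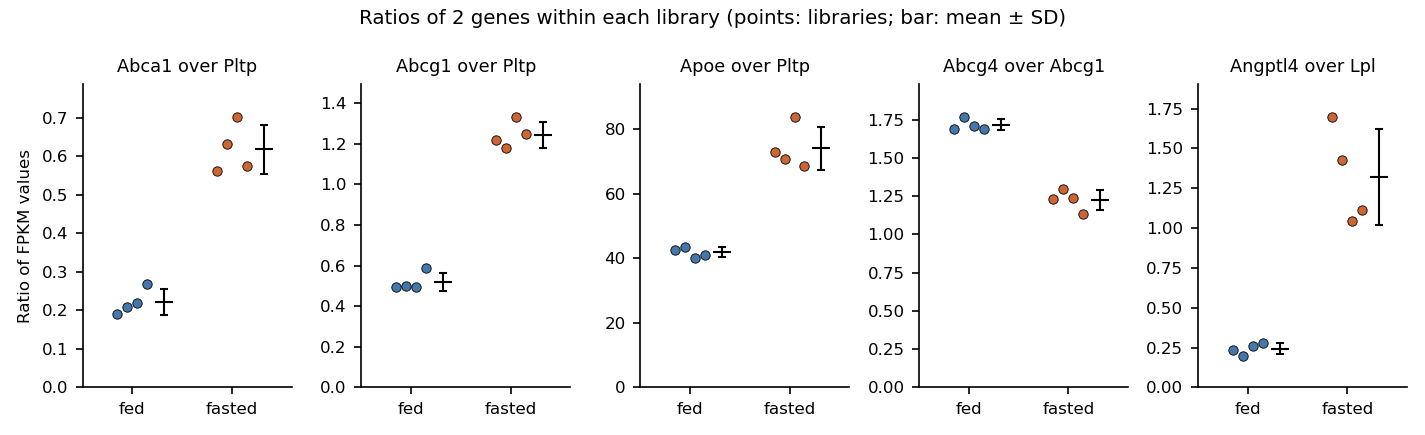
Ratio of the FPKM values of 2 genes within each library (vertical axes from 0), with points for libraries 1 to 4 and bars for the mean ± SD in fed and fasted cortex. Abca1, Abcg1 and Apoe over Pltp and Angptl4 over Lpl are higher in each fasted library than in any fed one, and Abcg4 over Abcg1 is lower. None of these ratios was set in advance, and all are a description.

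Lcat (chromosome 8, 105939551 to 105943382), which esterifies cholesterol on particles, was at 11.3, 10.8, 9.96 and 9.35 FPKM fed and at 8.03, 7.30, 7.01 and 7.95 fasted. The groups did not overlap, and ad libitum replicate 4 came nearest to the fasted values. The mean went from 10.4 ± 0.871 to 7.57 ± 0.497 FPKM (SD, n = 4 each), a log2 change of -0.40 with SE 0.0679 and adjusted p = 0.00189 (limma).

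Lpl (chromosome 8, 68880491 to 68907448), the lipase that frees fatty acids from the triglyceride of lipoproteins, was at 3.48, 3.75, 3.33 and 3.10 FPKM fed and at 1.79, 2.26, 2.06 and 1.96 fasted. All fasted libraries lay below all fed ones. The mean went from 3.42 ± 0.271 to 2.02 ± 0.193 FPKM (SD, n = 4 each), a log2 change of -0.55 with SE 0.0712 and adjusted p = 0.00049 (limma). At this low level the added 1 FPKM shrinks the change, which was -0.73 with 0.1 added in its place.

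Of 19 lipases and partners or relatives of Lpl 12 were tested, and 2 rose and 3 fell, with a median log2 change of -0.12. Angptl4, which encodes a secreted inhibitor of lipoprotein lipase, was at 0.826, 0.745, 0.873 and 0.858 FPKM fed and at 3.05, 3.22, 2.15 and 2.18 fasted. It passed the filter only through the fasted libraries, so that it had to differ to be tested. Its rise and its p are therefore a description. Its log2 change was 0.99 (limma adjusted p = 0.00012), and it was not tested when a fasted library was left out. The ratio of Angptl4 to Lpl within a library was 0.199 to 0.276 fed and 1.05 to 1.7 fasted. It sets a gene called higher over a gene called lower, so it had to rise and is a description only. Furin, a proprotein convertase gene, rose by 0.25. Pla2g7, the gene of a phospholipase carried on lipoproteins, went from 42.9 to 28.7 FPKM, and Lipa, the lysosomal acid lipase, from 4.84 to 3.59 (log2 changes of -0.56 and -0.35). Gpihbp1, which anchors lipoprotein lipase on capillaries and was named after its values were seen, was listed at 0 in 7 of 8 libraries.

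Mylip (chromosome 13, 45389742 to 45412022), the ubiquitin ligase that marks lipoprotein receptors for breakdown, was at 4.33, 5.39, 5.63 and 4.61 FPKM fed and at 4.48, 6.05, 5.52 and 5.56 fasted. The groups overlapped over most of their range. The log2 change was 0.10 with a 95% interval of -0.107 to 0.297 and was not called (limma adjusted p = 0.476). Without single libraries it ran from 0.0414 (ad libitum replicate 1) and 0.0471 (fasted replicate 2) to 0.146 (ad libitum replicate 3) and 0.168 (fasted replicate 1), and was not called in any of these. The intervals of Mylip and Abcg1 overlap, and the difference between the 2 changes was not tested.

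Of 21 lipoprotein receptors and regulators 17 were tested, and 0 rose and 2 fell, with a median log2 change of 0.00. Over all tested genes 9.56% rose and 16.3% fell (14.3% and 22.1% with the replicate block). By unadjusted limma p under 0.05 1 rose and 5 fell. With the replicate block 2 rose and 4 fell, with each scaling alternative and the GC and length offsets 1 rose, with those offsets 4 fell, and with a library left out 1 (without ad libitum replicate 2 or replicate 3 or 4 of the fasted group) to 4 (without ad libitum replicate 4) fell. Lrp4, a receptor-related gene known from synapse formation, went from 4.77 ± 0.128 to 2.89 ± 0.144 FPKM (SD, n = 4 each), a log2 change of -0.57 with adjusted p = 0.000112 (limma). Stab1, a scavenger receptor gene, had a log2 change of -0.25 (limma adjusted p = 0.0214), and it was lost on leaving out ad libitum replicate 2 (0.0526) or replicate 3 (0.0609) or 4 (0.0526) of the fasted group. Of the receptors whose breakdown Mylip is known to control, Vldlr and Lrp8 were named after their values were seen. Vldlr was at 10.9 and 9.63 FPKM (limma adjusted p = 0.0839, and 0.0316 with the replicate block) and Lrp8 at 9.78 and 10.3 (0.388). Lrp1, a large uptake receptor for apolipoprotein E particles chosen likewise, was at 26.8 and 29.1 FPKM (limma adjusted p = 0.199, and 0.0419 with the replicate block).

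Other genes listed here as LXR targets, 20 with 13 tested, rose in 2 cases and fell in 5, with a median log2 change of -0.14. Mertk, a receptor kinase for the uptake of dead cells, went from 8.84 ± 0.599 to 11.7 ± 1.23 FPKM (SD, n = 4 each), a log2 change of 0.37 with adjusted p = 0.00521 (limma). The other rise was that of Srebf1, named after its values were seen, which encodes a transcription factor of lipid synthesis and went from 4.68 to 5.77 FPKM (limma adjusted p = 0.0327). That call ended with no filter (adjusted p = 0.0528) and on leaving out fed library 1 or 3 or fasted library 1, 2 or 3 (0.0693 to 0.0872). Among the falls were Abca7, the fatty acid elongase gene Elovl5 at a log2 change of -0.42 and the phosphodiesterase gene Smpdl3a at -0.25. The desaturase genes Scd1 and Scd2, named after their values were seen, had log2 changes of -0.26 and -0.24, and Fasn, chosen likewise, was at 19.3 and 18.7 FPKM (limma adjusted p = 0.657). With a fed library 1 or 3 or a fasted library 1, 2 or 3 left out only Mertk rose. The list thus held genes that rose and genes that fell, as did the 10 genes themselves.

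Of 22 genes that make oxysterols or handle cholesterol 17 were tested, and 0 rose and 5 fell, with a median log2 change of -0.10. Rises made up 9.56% and falls 16.3% of all tested genes. Ebp, of sterol synthesis, had a log2 change of -0.30, and Lipa, named above, was also counted here. Stard4, a sterol carrier gene, had a log2 change of -0.29 (limma adjusted p = 0.0192), which was lost on leaving out ad libitum replicate 2 (0.0578) or replicate 1 (0.0531) or 3 (0.0508) of the fasted group. Without ad libitum replicate 2 the falls in the list numbered 3, and without ad libitum replicate 4 they numbered 7 with 1 rise. By unadjusted limma p under 0.05 3 genes of the list rose and 7 fell, and with the scaling alternatives up to 2 rose. Cyp46a1, the enzyme that makes the main oxysterol of neurons, was named after its values were seen and was at 94.8 ± 9.56 and 88.4 ± 7.76 FPKM (SD, n = 4 each; limma adjusted p = 0.418). Ch25h, which makes another oxysterol and was chosen likewise, was at 0.278 and 0.317 FPKM and was not tested.

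**Figure D4:**
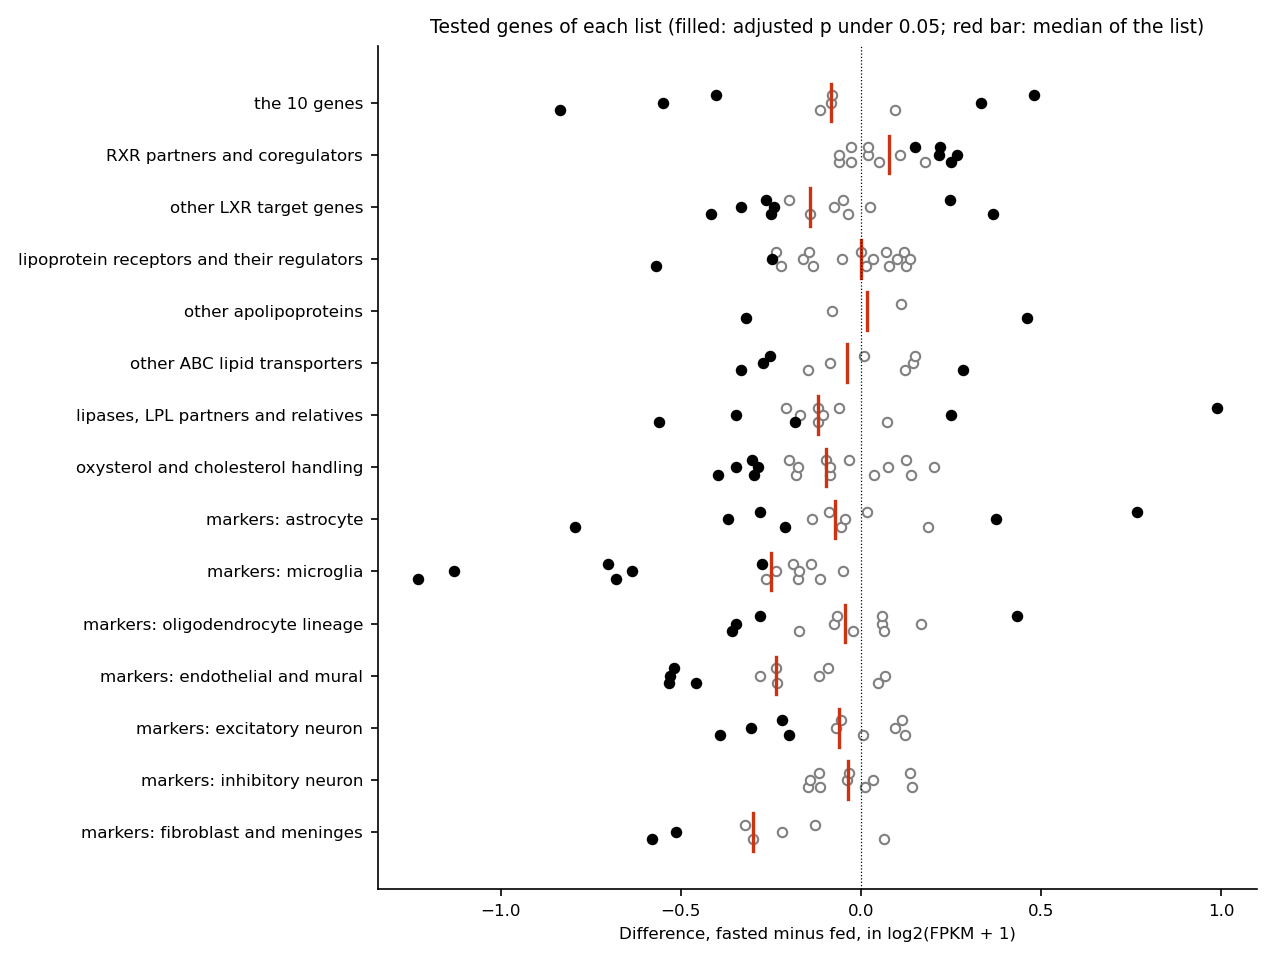
Difference between fasted and fed cortex in log2(FPKM + 1) for each tested gene of the lists, with filled points for called genes and a red bar for the median of the list. The 10 genes and the other LXR targets hold filled points on both sides of 0. So do the apolipoproteins, ABC transporters, lipases and the markers of astrocytes and the oligodendrocyte lineage. The microglial markers hold them only on the lower side. So do the lipoprotein receptors, the oxysterol list and the endothelial, excitatory neuron and fibroblast markers.

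Markers of the cell types known to make these genes were set beside the results. For their counts, 9.56% of all tested genes rose and 16.3% fell, or 14.3% and 22.1% with the replicate block. No such share was taken for counts by unadjusted p. In bulk tissue fewer cells of a type and less RNA per cell cannot be told apart. Of 12 astrocyte markers 2 rose and 4 fell, and their summed level was 833 to 901 FPKM fed and 823 to 904 fasted. Aqp4 had a log2 change of -0.79 and Slco1c1 of -0.37, while Gjb6 rose by 0.77 and Fgfr3 by 0.38. Of 14 microglial markers 0 rose and 6 fell, with summed levels of 159 to 225 FPKM fed and 142 to 162 fasted. Fcrls, Olfml3, Cx3cr1 and P2ry12 had log2 changes of -1.23, -1.13, -0.70 and -0.64, and 5 to 12 markers fell when a library was left out (12 without ad libitum replicate 4) and 9 with the replicate block. By unadjusted limma p under 0.05 0 microglial markers rose and 9 fell. The markers of endothelial and mural cells fell in 4 of 11 tested cases and rose in 0 (6 and 0 by unadjusted limma p under 0.05), with sums of 99.2 to 117 FPKM fed and 76.6 to 85.4 fasted. Among them Itm2a and Rgs5 each had a log2 change of -0.53, Tek of -0.52 and Vtn of -0.46. The called microglial, endothelial and mural markers thus fell, as did Pltp, Lcat and Lpl, while Abca1 and Abcg1 rose. Of these markers 8 of 14 microglial and 7 of 11 endothelial and mural ones were not called, and astrocyte markers went both ways. The called markers of excitatory neurons and of fibroblasts and meninges, given below, also all fell. Of the tested markers of these 2 lists, 6 of 10 and 5 of 7 were not called. The part of any of these cell types in the results for the 10 genes was not tested.

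Of 7 tested fibroblast and meninges markers 2 fell, Bgn at -0.58 and Col1a1 at -0.51 on the log2 scale, with sums of 59.0 to 74.4 FPKM fed and 39.5 to 63.2 fasted. In the oligodendrocyte lineage 1 of 12 markers rose, Mobp by 0.43, and 3 fell, Olig1, Olig2 and Bcas1. The calls of Olig2 and Bcas1 ended with no filter (limma adjusted p = 0.0571 and 0.0592) and on leaving out fed library 1, 2 or 3 or fasted library 2 or 4, and Olig2 also without fasted library 3 (0.0691 to 0.0993). Of 10 excitatory neuron markers 4 fell, among them Rorb, Neurod6 and Tbr1 at -0.39, -0.22 and -0.20. The other 6 were not called, and the median log2 change of the list was -0.06. Its summed level was 1160 to 1350 FPKM fed and 1230 to 1400 fasted, and so did not fall. The call of Neurod6 ended with quantile scaling (adjusted p = 0.0507) and on leaving out fed library 2 or 3 or fasted library 2 or 4 (0.0596 to 0.0839). That of Tbr1 ended with no filter (0.062), with no trend in the variance (0.0508) and without any of ad libitum replicates 1, 2 and 3 and fasted replicates 2, 3 and 4 (0.0563 to 0.114). Of 10 inhibitory neuron markers limma called 0, with 1 higher and 0 lower by unadjusted p under 0.05. Gad1 was at 67.6 and 74.6 FPKM (limma adjusted p = 0.112, and 0.00894 to 0.0385 with the 4 scaling alternatives and the replicate block) and Cck at 218 and 197 (0.167). Choroid plexus and ependyma markers summed to at most 5.2 FPKM in a library, with 1 tested, Foxj1, at 1.04 and 1.07 FPKM (limma adjusted p = 0.853). Of the blood markers 2 were tested and not called, Alas2 at 1.5 and 1.76 FPKM and Hba-a1 at 176 and 181 (limma adjusted p = 0.542 and 0.964).

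The order of the 10 genes by level per length differed between the groups. In fed cortex it ran from Apoe over Pltp, Abcg4, Nr1h2, Lcat, Abcg1, Mylip, Abca1 and Lpl to Nr1h3. Neighbours with overlapping ranges were Pltp and Abcg4, Nr1h2 and Lcat, Lcat and Abcg1, and Abca1 and Lpl. In fasted cortex it ran from Apoe over Abcg4, Abcg1, Nr1h2, Pltp, Lcat, Abca1, Mylip and Lpl to Nr1h3, and the overlapping neighbours were Abcg1 with Nr1h2 and Abca1 with Mylip. Pltp thus went from the second to the fifth place and Abcg1 from the sixth to the third.

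The tested genes most like Pltp over the 8 libraries, by Pearson correlation of log2(FPKM + 1), were Ptn and Tril (r = 0.993 each) and Dmtn and Akr1e1 (r = 0.992 each), all lower in fasted cortex (log2 changes of -0.41, -0.46, -0.39 and -0.52). Those most like Apoe were Bax (r = 0.992), Cinp, Ppp2cb and Slc35b2 (r = 0.991 each), none called. With group means removed the genes nearest to Pltp were Abhd8 (r = 0.994), Coro7, Atxn7l3 and Ptp4a3, and those nearest to Apoe were Txn2 (r = 0.995), Lysmd2, Atp5l and again Bax. Each is among the highest of the correlations with 12376 other genes, over libraries that also share differences in total FPKM.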

How the data were processed

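RNA was measured in 8 libraries of mouse occipital cortex, 4 fasted for 48 h and 4 fed ad libitum, grouped by the treatment label. Per the labels' protocols, tissue was frozen in liquid nitrogen, QIAzol was used to isolate RNA, and libraries were made by Illumina's protocols. Per the submitters' processing notes, TopHat and the build mm10 were used. The program that made the FPKM values, the annotation, strandedness and any scaling between libraries are among what is not given in the sources used here, so overlapping or antisense genes cannot be told apart. The authors deposited FPKM for 24883 rows. For 282 symbols on several rows the row with the highest mean was kept.

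FPKM are not counts, so limma 3.58.1 (R 4.3.3) was run on log2(FPKM + 1), a scale that understates the change of low genes, with genes that reached 1 FPKM in 4 or more libraries, group as the only term, a variance trend and robust moderation, and Benjamini-Hochberg adjustment over 12377 genes. It was tested on simulated data. Coordinates, GC content and length came from GENCODE M21 (GRCm38, the assembly of mm10), which 23284 of 24344 symbols matched. Same-numbered libraries of the groups deviated together from their group means, with r across genes of 0.574, 0.496, 0.382 and 0.523, all over 0.1. Over 11156 autosomal protein-coding genes r was 0.335, 0.193, 0.0758 and 0.371 for replicates 1 to 4. The replicate number was therefore also used as a block. Libraries of different numbers were not compared in this way, so whether the number itself links libraries was not tested. The use of this block rests on the data, not on a label. Libraries correlated at 0.974 to 0.994, and none duplicated another.

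The members and lists were chosen with earlier results of these data known. Named were the 10 genes, from each list the called genes of smallest p, up to 4, or 2 uncalled ones, and the 4 genes most like Pltp and Apoe. A few genes of the lists are not reported here by name. Others are marked as named after their values were seen. Python 3.11.15, pandas 2.3.3 and matplotlib 3.10.9 made tables and figures.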

Additional observations from a re-analysis of the deposited data

Results flagged for a closer look

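None of the 20 groups of 4 values of the 10 genes held a library far from the others (Dixon's ratio, the gap to the nearest value over the group's range, at its 95% limit). Of 139 groups over the 10 genes and the genes named from the lists 10 did, where chance gives about 1 in 20. The genes named for their likeness to Pltp or Apoe were not checked as such. Gps2 was at 9.75 FPKM in ad libitum replicate 1, under the others at 10.6 to 10.7, and at 13.1 in fasted replicate 1, above the others at 11.9 to 12.1. Smpdl3a was at 9.81 FPKM in fasted replicate 2 and at 10.9 to 11.0 in the others. Scd1 was at 32.7 FPKM in ad libitum replicate 4, against 36.4 to 36.5. Bgn was at 8.89 FPKM in ad libitum replicate 2, against 7.36 to 7.54. Alas2 was at 2.29 FPKM in ad libitum replicate 1, against 1.17 to 1.32. Apoc1 was listed at 0 in ad libitum replicate 1, against 0.475 to 0.527 FPKM. Apoc2 was listed above 0 only in replicate 4 of each group, at 0.138 and 0.135 FPKM, and Gpihbp1 only in fasted replicate 4, at 0.0803 FPKM. With 1 value above 0 in a group the ratio is 1 whatever its size, so the rate of 1 in 20 does not hold for these.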

How the results depend on the processing

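The counts of 2 rises and 3 falls among the 10 genes were the same in all 20 alternatives, and all 180 values of the 9 tested genes kept their direction and their side of the threshold. With the replicate number as a block 1773 genes rose and 2733 fell, against 1183 and 2015, and the calls of the 10 genes were the same. Over all genes the balance moved with scaling: calls were 37.0% rises, and 47.7% with median-ratio scaling (1762 rises, 1935 falls), 48.4% with quantile scaling (1792 and 1909) and 49.8% with GC and length offsets (2152 and 2166). Rises ran from 833 to 1193 and falls from 1362 to 2529 when a library was left out. Of 1096 values of 55 other genes 49 lost and 13 gained the call and 8 changed sign, none of the last from a called value; the cause was not tested. With a library left out the log2 change of Foxj1 ran from -0.0377 to 0.0725 (below 0 without ad libitum replicate 2 or fasted replicate 4) and that of Hba-a1 from -0.214 to 0.243 (above 0 without ad libitum replicate 1 or fasted replicate 1 or 4). Hba-a1 was at 0.00405 with median-ratio scaling, 0.00927 with quantile scaling and 0.0812 with GC and length offsets. Nr1h3 lay under 1 FPKM in all libraries, so it did not pass the main filter and was not tested there.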
